A study of Rattus norvegicus with 12 samples.

Results

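The comparison described here is stroke by middle cerebral artery occlusion (MCAO) against the sham group coded LN, which takes 6 of the 12 libraries of a rat brain RNA sequencing series: 3 libraries labelled MCAO and 3 sham LN libraries. All rats were Sprague Dawley at postnatal day 21, and no genotype, transgene or drug is named for either group. The other 6 libraries, 3 of pontine infarction (a stroke of the pons in the brainstem) and 3 of its sham group PN, entered the fit to share its estimate of the spread and serve for a side by side reading at the end. The labels name brain as the tissue and do not give the dissected region, the hemisphere, the duration of the occlusion or the time from stroke to sampling. Sham LN was set against MCAO because the codes of both begin with L. The labels mention 3 rats with MCAO but not whether each library is a separate rat, so p-values measure the spread between libraries. The column of the third MCAO library carries a number found in no sample title, and it is called the unnumbered MCAO library.

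The middle cerebral artery supplies the lateral cortex and, through its deep branches, the striatum. When it is blocked, neurons in the core of its territory lose ion gradients and die, while cells around the core switch on stress and inflammatory genes. Resident microglia, astrocytes and endothelial cells release chemokines, and neutrophils and then monocytes enter from the blood. Astrocytes become reactive, raising intermediate filaments and lowering some of their transport functions, and proteases remodel the matrix and the barrier between blood and brain.

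The 3 MCAO libraries held 19958472, 20408615 and 21476777 counts and the sham LN libraries 27286982 to 40400676, so each MCAO library was shallower than each sham library. The test covered 17008 of 37209 symbols, and those too low for it made up 0.0453% of counts. Levels are CPM, which are counts scaled to the size of the library, always in the order MCAO 1, MCAO 2 and the unnumbered library, then sham LN 1, 2 and 3; log2 changes are fitted values of MCAO minus sham LN ± SE, and a gene called higher or lower had an edgeR adjusted p under 0.05. Genes of chromosome X could not be read: of 606 protein-coding symbols placed there on the current rat assembly 97.5% were listed at 0 in all 12 libraries, against 1.82% to 13% on each autosome. The 26 listed genes on X, among them Timp1, Pgk1, Syp and Il2rg, were at 0 throughout and are not interpreted. Markers of cortical and striatal neurons were abundant (Slc17a7 at 802 to 1612 and Ppp1r1b at 1345 to 2869 CPM in shams), while 9 Hox genes of the hindbrain stood at 0 to 0.289 CPM in the 6 libraries. Overlapping and antisense genes cannot be told apart, because the strandedness of counting is not given in the sources used here. In bulk tissue fewer cells of a type and less RNA per cell cannot be told apart either.

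The 3 MCAO libraries were not alike. Over all tested genes the median absolute log2 difference between MCAO 2 and each sham was 0.27 to 0.29, smaller than the 0.48 and 0.45 that separated MCAO 2 from MCAO 1 and from the unnumbered library. MCAO 1 and the unnumbered library lay 0.58 to 0.61 from the shams and 0.36 from each other, and the shams lay 0.18 to 0.22 apart. The number of genes over 4-fold above the sham mean was 1453 in MCAO 1, 512 in MCAO 2 and 1219 in the unnumbered library. Values are therefore given by library, and a named gene said to have risen or fallen was still called with any of the 6 libraries left out unless a loss is named. Those fits kept the pontine libraries, and losses in a fit of the 6 compared libraries alone are not named by gene.

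After MCAO 3163 genes were called, 18.6% of those tested: 2131 higher (12.5%) and 1032 lower (6.07%; edgeR quasi-likelihood test). The 12.5% and 6.07% are the shares to set beside the list counts below. Rises were larger than falls. The median log2 change was 1.93 among genes called higher and -0.95 among genes called lower, against -0.00 over all genes tested, and 287 rises but 9 falls reached 5 on the log2 scale. Many rises began near nothing, as 31.5% of the genes called higher had a sham mean under 1 CPM, compared with 5.04% of those called lower and 18.1% of all tested. Library values of the 2 groups did not overlap for 2001 of the rises and 1007 of the falls, against 39.1% of all genes tested. Genes called higher made up 18.2%, 7.54% and 13.6% of the counts of the 3 MCAO libraries and 4.38% to 4.43% of those of the shams. MCAO 2 had the lowest value of the 3 in 87.3% of the rises and the value nearest to the shams in 83.1% of the falls, while MCAO 1 was highest in 65.1% of the rises and the unnumbered library in 31.3%.

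The number of calls rested on single libraries. Without MCAO 2 it was 2873 higher and 3297 lower. It was 949 and 477 without MCAO 1, 1268 and 249 without the unnumbered library, and 937 and 199, 1124 and 420, and 965 and 292 without sham LN 1, 2 and 3. The 6 libraries fitted alone gave 1125 higher and 229 lower, and these held 1084 of the rises and 213 of the falls called in the main fit. Of the calls, 780 rises and 168 falls passed in all 6 fits with a library left out. With all libraries thinned to the depth of the smallest, 2042 genes were called higher and 971 lower.

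**Figure D1:**
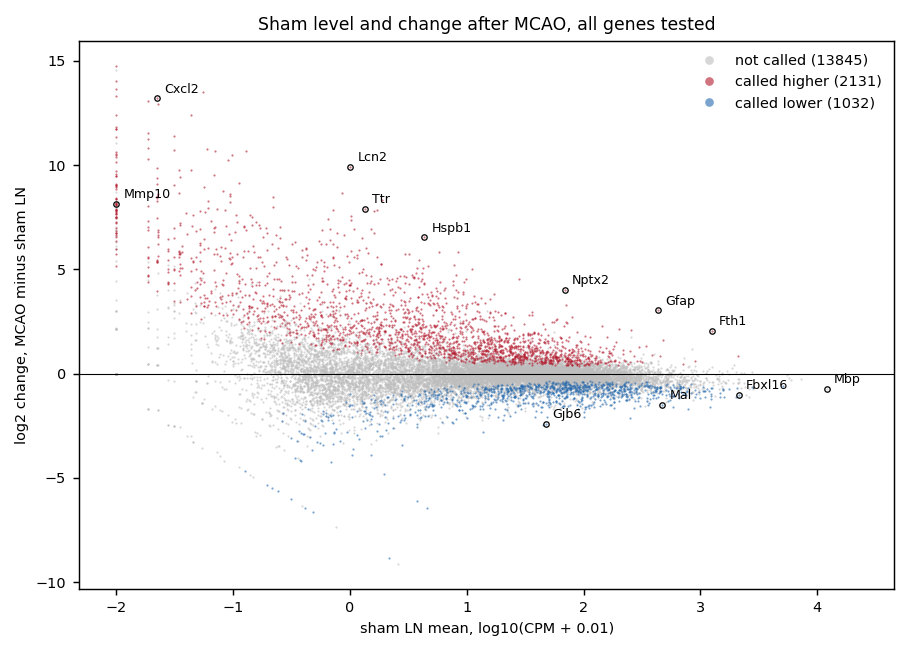
Each point is one of 17008 tested genes; the x axis is the sham LN mean as log10(CPM + 0.01) and the y axis the fitted log2 change of MCAO minus sham LN, with genes called higher in red (2131), called lower in blue (1032) and not called in grey (13845). Rises reach far larger values than falls and are largest among genes near 0 in the shams, whose fitted values depend on the prior count; circles mark genes named in the text.

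Chemokines, the secreted proteins that draw leukocytes out of the blood, held some of the largest rises. Cxcl1, Cxcl2 and Cxcl3 attract neutrophils through the receptor Cxcr2. Cxcl2 stood at 285, 126 and 31.6 CPM after MCAO and at 0, 0.0371 and 0 in the shams, 1 count in all, which gives a ratio of 13449, 95% counting interval 2413 to 531255. Cxcl1 stood at 97.5, 10.6 and 34.3 CPM and Cxcl3 at 111, 54.5 and 14.1 CPM with no count in any sham, so they were at least 1452-fold higher and at least 1819.6-fold higher taking 3 counts in the sham group as the limit. All 3 MCAO libraries lay above all shams for these genes, but their order differed: Cxcl1 was lowest in MCAO 2, whereas Cxcl2 and Cxcl3 were lowest in the unnumbered library and higher in MCAO 2. Cxcl1 was no longer called without sham LN 1 (edgeR adjusted p = 0.0507). The monocyte attractants Ccl2 and Ccl7 stood at 377, 16.8 and 224 and at 259, 5.38 and 105 CPM, with 3 and 1 counts over the shams. For Ccl2 that is a ratio of 6300.1, 95% counting interval 2155 to 30554, and for Ccl7 a ratio of 11293, 95% counting interval 2026 to 446093. For both MCAO 1 was highest and MCAO 2 lowest, as it was for most rises.

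Of 25 chemokine ligands listed, 23 were tested, 14 were called higher and 1 lower, with a median log2 change of 5.57, against 12.5% called higher and a median of -0.00 over all genes tested (the count called higher was 9 without the unnumbered MCAO library, sham LN 2 or sham LN 3 and 8 without sham LN 1). Members near 0 in the shams, such as Cxcl1 and Cxcl3, could not reach the count minimum through sham LN. The counts and the median therefore describe the tested members and are not a share of the list. The same limit applies to such members of the other lists. The member called lower was Cxcl12, a chemokine of vessels and stroma that retains leukocytes, at 27.9, 92.4 and 23.3 CPM against 141, 147 and 130.4. Cxcl12 was no longer called without any 1 library other than MCAO 2 (edgeR adjusted p = 0.0792 to 0.115). The most abundant ligand was not called: Cx3cl1, a neuronal chemokine that signals to microglia, stood at 279.6, 684 and 578 CPM against 988, 992 and 881 (log2 change -0.89 ± 0.35, edgeR adjusted p = 0.094), lower in all 3 MCAO libraries. Among 14 tested of 21 listed receptors, 10 were called higher (6 without sham LN 3). Cxcr2, the neutrophil receptor, stood at 40.9, 6.22 and 36.9 CPM with 1 count over the shams (a ratio of 2568, 95% counting interval 460.3 to 101482). Ccr1, a receptor of monocytes and neutrophils, stood at 41.1, 7.95 and 25.5 against 0.105 to 0.153 CPM (log2 change 7.50 ± 1.08, edgeR adjusted p = 0.00244), and Ltb4r, the leukotriene B4 receptor, at 58.6, 9.33 and 27.9 against 0.185 to 0.306 (log2 change 7.02 ± 1.44, edgeR adjusted p = 0.0089). The microglial receptor Cx3cr1 was not called, at 5.92, 75.4 and 24.1 CPM against 78.3, 67.6 and 57.6 (log2 change -0.95 ± 0.70, edgeR adjusted p = 0.352), with MCAO 2 inside the sham range and the others below it.

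Nfkbia, the inhibitor that holds NF-kB in the cytoplasm, stood at 437, 129 and 187 CPM against 35.9, 35.1 and 36.9 (log2 change 2.80 ± 0.64, edgeR adjusted p = 0.0145). Nfkbia was no longer called without MCAO 1 or any 1 sham (edgeR adjusted p = 0.0539 to 0.0614). The promoters of Cxcl1, Cxcl2 and Nfkbia are shown because these genes were called higher together and share the letters GGGNN followed at once by TTTCC (N is any base), searched on both strands, the pattern bound by NF-kB, a transcription factor of inflammatory signalling. Each is the 250 bases before the annotated start from RefSeq, 5′ to 3′ on the gene's strand, with matches in capitals; the first base of each match lies 102 and 84 bases before the start in Cxcl1, 74 and 54 in Cxcl2 and 31 in Nfkbia.
Cxcl1, GRCr8 chr14:17479322-17479571, minus strand: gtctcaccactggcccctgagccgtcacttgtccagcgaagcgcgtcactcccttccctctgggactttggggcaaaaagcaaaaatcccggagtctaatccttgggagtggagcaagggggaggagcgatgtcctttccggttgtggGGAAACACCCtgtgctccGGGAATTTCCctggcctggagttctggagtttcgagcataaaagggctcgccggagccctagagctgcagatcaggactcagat
Cxcl2, GRCr8 chr14:17467256-17467505, minus strand: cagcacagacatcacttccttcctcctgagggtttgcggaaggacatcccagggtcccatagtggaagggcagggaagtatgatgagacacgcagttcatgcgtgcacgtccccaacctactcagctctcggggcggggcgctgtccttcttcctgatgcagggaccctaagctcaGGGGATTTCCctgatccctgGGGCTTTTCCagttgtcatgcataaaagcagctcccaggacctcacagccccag
Nfkbia, GRCr8 chr6:78597073-78597322, minus strand: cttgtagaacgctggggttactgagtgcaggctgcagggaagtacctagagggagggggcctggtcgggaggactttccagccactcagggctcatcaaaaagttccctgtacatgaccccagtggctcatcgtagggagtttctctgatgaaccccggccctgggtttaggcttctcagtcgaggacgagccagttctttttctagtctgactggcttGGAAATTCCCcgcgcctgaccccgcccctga
These letters occurred in the 300-base windows (250 bases before to 50 after the start) of 5 of 18 chemokine ligands with a window, Ccl9, Ccl20, Cxcl1, Cxcl2 and Cxcl6, and of 5 of 17 feedback inhibitors, Nfkbia, Nfkbiz, Tnfaip3, Dusp5 and Il1rn. Of these 10 genes Ccl20 and Dusp5 were not called. Ccl9 and Cxcl6 were no longer called without any 1 library other than MCAO 2 (edgeR adjusted p = 0.0593 to 0.106). Nfkbiz and Tnfaip3 were no longer called without MCAO 1 or any 1 sham (edgeR adjusted p = 0.055 to 0.0835). The letters were found in 1.5% of all 24206 rat promoter windows, in 1.78% of those of tested genes and in 5.81% of the 396 windows of genes called higher by at least 3 on the log2 scale. Over all genes called higher the share was 2.94%, and over genes called lower 1.59%. In the same 396 windows the interferon response element, also searched, stood at 7.32% against 2.93% for tested genes, and the CRE pattern at 1.26% against 3.04%. A match describes the letters and not binding.

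Most tested cytokines were called higher, as were some of their receptors and inhibitors. Il1b, the inflammatory cytokine interleukin-1 beta, stood at 372, 67.5 and 124 CPM against 0.0263, 0.296 and 0.0382 (log2 change 10.66 ± 2.05, edgeR adjusted p = 0.00697), and Csf3, the neutrophil growth factor G-CSF, at 88.4, 0.938 and 50.3 CPM with 1 count over the shams (a ratio of 4274, 95% counting interval 766 to 168865). Csf3 in MCAO 2 was near 1 CPM while the others exceeded 50, whereas Il1b exceeded 60 CPM in all 3. Il10, an anti-inflammatory cytokine, was at 15.6, 0.938 and 1.93 CPM with no sham count (at least 188-fold higher), mostly from MCAO 1. Csf3 was no longer called without any 1 sham (edgeR adjusted p = 0.0723 to 0.0943). Il10 was no longer called without any 1 library other than MCAO 2 (edgeR adjusted p = 0.0587 to 0.0896). In all 19 of 22 tested cytokines and growth factors (26 listed) were called higher, with library medians of 6.28, 2.05 and 4.74 above the sham mean on the log2 scale. Members near 0 in the shams, such as Csf3 and Il10, could not reach the count minimum through sham LN, so this count is a description. Vegfa, the vessel growth factor, was among those not called (233, 90.2 and 119 CPM against 86.4, 78.2 and 89.4, edgeR adjusted p = 0.0694).

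Of 23 tested cytokine receptors 15 were called higher at a median log2 change of 1.82. Il1r2, a decoy receptor that binds interleukin-1 without signalling, stood at 121, 31.8 and 25.9 CPM against 0 to 0.474 (log2 change 7.99 ± 1.48, edgeR adjusted p = 0.006), again higher in MCAO 2 than in the unnumbered library. Csf2rb, the shared chain of GM-CSF, interleukin-3 and interleukin-5 receptors, stood at 205, 41.3 and 155 CPM against 1.001 to 1.15 (log2 change 6.94 ± 0.72, edgeR adjusted p = 0.000821), and Tnfrsf1b, a TNF receptor of immune cells, at 333, 43.7 and 135 against 3.02 to 4.45 (log2 change 5.45 ± 0.77, edgeR adjusted p = 0.00238). The lowest MCAO library exceeded the highest sham for each of the 3. Among 21 genes that damp these signals 16 were called higher (the count was 9 without MCAO 1 or sham LN 2, 10 without sham LN 1 and 8 without sham LN 3). Il1rn, the interleukin-1 receptor antagonist, stood at 779, 92.2 and 237 CPM against 1.92, 0.222 and 0.421 (log2 change 8.65 ± 1.26, edgeR adjusted p = 0.00244), and Socs3, an inhibitor of STAT3 signalling, at 581, 114 and 494 against 2.03, 1.41 and 1.64 (log2 change 7.86 ± 0.99, edgeR adjusted p = 0.00154). Bcl3, a nuclear partner of NF-kB, stood at 73.1, 12.1 and 49.2 CPM against 0.382 to 0.711 (log2 change 6.34 ± 0.99, edgeR adjusted p = 0.00288). For these 3 inhibitors the order of libraries was the same, MCAO 1 above the unnumbered library above MCAO 2.

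Genes that mark blood leukocytes were near 0 in the shams. The 20 listed neutrophil genes, 12 of them tested, summed to 3493, 142 and 1142 CPM after MCAO and to 8.32 to 9.71 CPM in the shams. Genes so low in shams reach the count minimum only through the stroke libraries, so the 11 called higher are a description and not a share of the list. Lcn2, which is not limited to neutrophils, made up most of the sum in MCAO 1. The listed granule genes Mpo, Elane, Ctsg, Ltf and Ngp held only 12, 63, 2, 7 and 18 counts over all 12 libraries of the series. S100a9, a subunit of the neutrophil protein calprotectin, stood at 226, 4.64 and 59.4 CPM against 0.0263, 0 and 0.153 (log2 change 10.65 ± 2.29, edgeR adjusted p = 0.0108), and Slpi, a protease inhibitor of neutrophils and epithelia, at 236, 19.0 and 150.0 with 1 sham count (a ratio of 12394, 95% counting interval 2224 to 489577). Lcn2, an iron-siderophore binding protein of neutrophils and reactive astrocytes, stood at 2359, 32.8 and 427 CPM against 0.395, 0.889 and 1.72 (log2 change 9.92 ± 1.79, edgeR adjusted p = 0.00542), so MCAO 1 was far above MCAO 2 for S100a9 and Lcn2. S100a9 was no longer called without sham LN 1 (edgeR adjusted p = 0.0562). Of 20 lymphocyte markers 7 were tested, 4 were called higher and Cd4, which rat myeloid cells also carry, lower (6.78, 10.8 and 6.58 CPM against 23.3, 17.97 and 18.6). The 4 called higher stayed at or under 3.82 CPM. Cd8a stood at 3.27, 1.33 and 2.56 CPM against 0.0263, 0.0371 and 0 and Ncr1, a receptor of NK cells, at 2.41, 0.790 and 0.822 with no sham count (at least 40.8-fold higher). Here too the low members could be tested only through the stroke libraries. The summed level of the 19 found in the table was 20.8, 18.5 and 21.3 CPM after MCAO and 27.2, 20.4 and 21.3 in shams. Cd4, called lower, made up most of this sum in each sham, so the sum does not show the level of the other markers. Cd8a was no longer called without sham LN 1 or sham LN 3 (edgeR adjusted p = 0.0531 to 0.0585). Cd4 was no longer called without MCAO 1, the unnumbered MCAO library or sham LN 1 (edgeR adjusted p = 0.0582 to 0.0732).

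Receptors by which myeloid cells sense damage, listed together with adaptors and inflammasome genes, were mostly called higher, at low to middle levels. Of 23 tested, 16 were called higher, at a median log2 change of 2.85. This count too is a description, as members near 0 in the shams, such as Clec4e, could not reach the count minimum through sham LN. Clec7a, the beta-glucan receptor dectin-1, was among the more even, at 33.2, 17.5 and 20.8 CPM against 0.0263 to 0.0765 (log2 change 8.93 ± 0.88, edgeR adjusted p = 0.000679). Cd14, the lipopolysaccharide co-receptor, stood at 289, 24.9 and 267 CPM against 1.26, 0.964 and 0.841 (log2 change 7.54 ± 1.12, edgeR adjusted p = 0.00246), nearly equal in MCAO 1 and the unnumbered library. Clec4e, a receptor for dead cells and mycobacterial lipid also called Mincle, had no sham count at 26.6, 11.4 and 9.72 CPM after MCAO (at least 485-fold higher). Trem1, an amplifier of neutrophil and monocyte activation, stood at 73.4, 8.44 and 16.5 CPM with 3 sham counts (a ratio of 1002, 95% counting interval 342 to 4863). Among 24 tested lysosomal and phagocytic genes 11 were called higher, against 12.5% over all genes tested. Msr1, a scavenger receptor, stood at 131, 18.01 and 67.6 CPM against 0.105 to 0.296 (log2 change 8.45 ± 0.93, edgeR adjusted p = 0.000909), and Gpnmb, a membrane glycoprotein of lipid-laden phagocytes, at 780.0, 193 and 445 against 8.85, 9.60 and 6.66 (log2 change 5.82 ± 0.73, edgeR adjusted p = 0.00154). The lysosomal protease Ctsb was the largest of these in amount, at 2223, 816 and 1403 CPM against 487, 512 and 442 (log2 change 1.62 ± 0.37, edgeR adjusted p = 0.0143). Ctsb was no longer called without MCAO 1, sham LN 1 or sham LN 3 (edgeR adjusted p = 0.0567 to 0.0689). Apoe, the main lipid carrier of the brain, was not called and was lower in all 3 MCAO libraries (1381, 2262 and 1377 CPM against 3196, 2628 and 2693, edgeR adjusted p = 0.115).

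Genes of resting microglia were mostly not called. Of 15 tested, P2ry6 and Siglech were called higher and Tmem119 lower, shares close to the 12.5% and 6.07% over all genes tested, with a median log2 change of -0.46. Without MCAO 2 the count called lower was 6. Tmem119 stood at 7.17, 24.5 and 4.55 CPM against 43.3, 44.1 and 42.1 (log2 change -1.84 ± 0.58, edgeR adjusted p = 0.0473). Tmem119 was no longer called without any 1 library other than MCAO 2 (edgeR adjusted p = 0.0998 to 0.142). P2ry12, the ADP receptor that guides microglial processes, stood at 0.818, 7.80 and 0.871 CPM against 17.1, 12.1 and 11.2 and was not called (log2 change -2.09 ± 0.79, edgeR adjusted p = 0.0838). In MCAO 1 and the unnumbered library P2ry12 was under 1 CPM and Tmem119 under 8, while MCAO 2 held 7.80 and 24.5. Csf1r, the receptor microglia need to survive, overlapped between groups (185, 170.3 and 118 CPM against 137, 149 and 116). P2ry6, a receptor for UDP that triggers phagocytosis, rose to 42.4, 6.76 and 23.3 CPM from 3.64, 3.34 and 3.63 (log2 change 2.77 ± 0.54, edgeR adjusted p = 0.00752), while Siglech, a microglial lectin, reached 0.0481, 0.444 and 2.08 CPM with no sham count. Siglech was no longer called without the unnumbered MCAO library or any 1 sham (edgeR adjusted p = 0.0752 to 0.0926).

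Nos2, the inducible nitric oxide synthase, stood at 174, 47.8 and 36.6 CPM against 0, 0.148 and 0 (log2 change 10.77 ± 1.96, edgeR adjusted p = 0.00551), and Arg1, arginase, which uses the same substrate, at 173, 13.1 and 38.6 against 3.40, 2.59 and 2.75 (log2 change 4.68 ± 0.78, edgeR adjusted p = 0.00393). Both were highest in MCAO 1, but the lowest library was the unnumbered one for Nos2 and MCAO 2 for Arg1. Ptgs2, the inducible cyclooxygenase, stood at 93.6, 25.4 and 257 CPM against 6.45, 11.9 and 7.08 (log2 change 3.89 ± 0.86, edgeR adjusted p = 0.0118) and was highest in the unnumbered library. Ptgs2 was no longer called without sham LN 1 or sham LN 3 (edgeR adjusted p = 0.056 to 0.0593). Odc1, which makes polyamines from the product of arginase, stood at 209, 111 and 302 CPM against 64.5, 68.2 and 60.5 (log2 change 1.69 ± 0.32, edgeR adjusted p = 0.00683). In all 9 of 17 such enzymes were called higher. The annexins and S100 proteins, calcium-binding proteins of many cell types, had 11 of 19 called higher (7 without sham LN 1) and S100a1 lower, against 12.5% and 6.07% over all genes tested. Anxa2, which also anchors plasminogen at the cell surface, stood at 391, 52.3 and 235 CPM against 10.4, 9.23 and 9.91 (log2 change 4.52 ± 0.65, edgeR adjusted p = 0.00244), whereas Anxa3, found in microglia, was even across libraries at 88.5, 91.4 and 81.8 against 46.4, 41.3 and 40.4 (log2 change 1.03 ± 0.19, edgeR adjusted p = 0.00532). Of 18 protease inhibitors 9 were called higher, and Serpine2 and Timp4 lower, beside the same 12.5% and 6.07% (the count called lower was 1 without MCAO 1, the unnumbered MCAO library, sham LN 2 or sham LN 3, 4 without MCAO 2 and 0 without sham LN 1). Serpina3n, a reactive astrocyte serpin, stood at 1623, 20.2 and 53.8 CPM against 0.0263, 0.111 and 0 (log2 change 13.50 ± 2.80, edgeR adjusted p = 0.0092), far higher in MCAO 1 than in the other MCAO libraries. Serpina3n was no longer called without sham LN 1 (edgeR adjusted p = 0.05003). S100a1 was no longer called without any 1 library other than MCAO 2 (edgeR adjusted p = 0.0761 to 0.154). Serpine2 was no longer called without sham LN 1 or sham LN 3 (edgeR adjusted p = 0.0508 to 0.0691).

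Most listed genes of reactive astrocytes were called higher, while part of the listed astrocyte transport genes were called lower. In bulk tissue these lists cannot be placed in the same cells, as Lcn2, Cd14 and Vim are not limited to astrocytes. Gfap, the intermediate filament of astrocytes, stood at 3433, 3843 and 3505 CPM after MCAO and at 507, 429 and 366 in shams (edgeR adjusted p = 7.24e-05, log2 change 3.05 ± 0.22) and was as high in MCAO 2 as in the other libraries. Vim, a second filament of reactive glia and many other cells, was graded instead, at 1181, 256 and 601 against 62.3, 73.1 and 75.2 CPM (log2 change 3.27 ± 0.51, edgeR adjusted p = 0.00288). Of 22 tested reactive astrocyte genes 21 were called higher, with a median log2 change of 4.52 and library medians of 5.14, 2.30 and 4.43. Ptx3, a soluble pattern receptor, stood at 157, 4.64 and 136 CPM against 0.0371 to 0.153 (log2 change 10.24 ± 2.24, edgeR adjusted p = 0.0114), with little in MCAO 2. Ptx3 was no longer called without sham LN 1 or sham LN 3 (edgeR adjusted p = 0.0502 to 0.0585). Ncan, the brain proteoglycan neurocan, stood at 863, 929 and 1397 CPM against 236, 282 and 243 (log2 change 2.07 ± 0.25, edgeR adjusted p = 0.00137), high in every MCAO library. Aspg, an asparaginase, was also close in the 3 MCAO libraries, at 10.97, 8.93 and 11.7 CPM against 0.0527 to 0.153 (log2 change 6.81 ± 0.46, edgeR adjusted p = 5.37e-05).

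Genes by which astrocytes clear ions, water and glutamate leaned the other way, with 11 of 20 called lower and 1 higher, against 6.07% called lower over all genes tested (the count called lower was 3 without the unnumbered MCAO library or sham LN 1, 6 without sham LN 2 and 5 without sham LN 3, and 16 without MCAO 2). Gjb6, the gap junction protein connexin 30, stood at 3.46, 18.3 and 5.13 CPM against 48.4, 51.5 and 41.8 (log2 change -2.40 ± 0.48, edgeR adjusted p = 0.00796). Slc6a11, the GABA transporter GAT3, stood at 14.9, 55.7 and 35.1 CPM against 104, 99.4 and 88.2 (log2 change -1.46 ± 0.40, edgeR adjusted p = 0.0274). For both every MCAO library lay below every sham, with MCAO 2 nearest to them. Slc6a11 was no longer called without the unnumbered MCAO library or any 1 sham (edgeR adjusted p = 0.0632 to 0.0871). Glul, glutamine synthetase, the most abundant of the list, was not called and was higher in value (2342, 2179 and 2157 CPM against 1757, 1996 and 1799.7, edgeR adjusted p = 0.212). Among 20 identity and metabolic genes 11 were called lower and 3 higher (the count called lower was 5 without the unnumbered MCAO library and 4 without sham LN 1). Aldoc, the aldolase of astrocytes, fell from 1226, 1044 and 1025 to 521, 799 and 546 CPM (log2 change -0.82 ± 0.18, edgeR adjusted p = 0.0124), and the rises were Pla2g7 and the metallothioneins Mt1a and Mt2A, metal-binding stress proteins (80.1, 7.60 and 56.4 CPM against 4.22 to 5.85 for Mt1a). Aldoc was no longer called without the unnumbered MCAO library or sham LN 1 (edgeR adjusted p = 0.0546 to 0.0583). Mt1a was no longer called without MCAO 1 or any 1 sham (edgeR adjusted p = 0.057 to 0.0723). Mt2A and Pla2g7 were no longer called without any 1 library other than MCAO 2 (edgeR adjusted p = 0.0522 to 0.239). On the 6 libraries alone 2 of each list were called lower.

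Most myelin genes were called lower, by a similar amount in all 3 MCAO libraries. Of 19 tested, 12 were called lower and 1 higher; the count called lower was 10 to 14 with any of the 6 libraries left out and 11 on the 6 libraries alone. The library medians below the sham mean were -1.15, -1.22 and -0.97, so MCAO 2 was not nearer to the shams here. Mal, a lipid raft protein of myelin, stood at 151, 159 and 196 CPM against 462, 424 and 533 (log2 change -1.49 ± 0.18, edgeR adjusted p = 0.00144). Cnp, a myelin enzyme that binds the cytoskeleton, stood at 519.7, 599 and 609 CPM against 1419, 1240.0 and 1026 (log2 change -1.09 ± 0.22, edgeR adjusted p = 0.00774), and Opalin, a membrane protein of myelinating cells, at 45.5, 39.4 and 37.1 against 114, 131 and 121 (log2 change -1.58 ± 0.35, edgeR adjusted p = 0.0125). The 2 groups did not overlap for any of the 3, and the MCAO values of each lay close together. Opalin was no longer called without the unnumbered MCAO library (edgeR adjusted p = 0.0512). Gjc3, a gap junction protein of oligodendrocytes, stood at 2.84, 5.43 and 3.97 CPM against 12.99 to 13.3 in shams. Mbp, myelin basic protein, by far the most abundant, was below every sham in each MCAO library but was not called (8190.1, 5166 and 8328 CPM against 15035, 10842 and 10149, log2 change -0.73 ± 0.24, edgeR adjusted p = 0.0528). The exception in direction was Mboat1, a lysophospholipid acyltransferase, at 11.4, 3.31 and 6.14 CPM against 0.497 to 1.29 (log2 change 2.87 ± 0.56, edgeR adjusted p = 0.00742).

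Precursor genes of the same lineage were mixed. Of 18, 6 were called lower and 1 higher, against 6.07% and 12.5% over all genes tested (the count called lower was 2 without the unnumbered MCAO library, 1 without sham LN 1 and 3 without sham LN 2 or sham LN 3). Gpr17, a receptor of cells about to form myelin, stood at 12.6, 48.1 and 11.4 CPM against 101, 108 and 92.3 (log2 change -2.06 ± 0.46, edgeR adjusted p = 0.0128) and Enpp6, an enzyme of newly formed oligodendrocytes, at 6.16, 5.33 and 7.98 against 16.9, 10.97 and 12.2 (log2 change -1.04 ± 0.25, edgeR adjusted p = 0.0182). The rise was Vcan, the proteoglycan versican, at 230.5, 42.4 and 205 CPM against 32.03, 30.2 and 30.03 (log2 change 2.37 ± 0.55, edgeR adjusted p = 0.0149), with MCAO 2 little above the shams. Enpp6 was no longer called without sham LN 1 (edgeR adjusted p = 0.0806). Vcan was no longer called without any 1 library other than MCAO 2 (edgeR adjusted p = 0.0509 to 0.061). Sterol synthesis genes, which supply myelin cholesterol, had 3 of 20 called lower, Mvk, Dhcr7 and Fdft1, against 6.07% over all genes tested, and 1 without any 1 sham. Mvk, mevalonate kinase, stood at 17.6, 19.0 and 14.9 CPM against 32.5, 31.4 and 28.8 (log2 change -0.85 ± 0.17, edgeR adjusted p = 0.00784). Dhcr7 was no longer called without any 1 library other than MCAO 2 (edgeR adjusted p = 0.0768 to 0.119). Fdft1 was no longer called without any 1 sham (edgeR adjusted p = 0.0599 to 0.0719). Scd, the desaturase of fatty acid synthesis and the largest CPM difference among genes called lower, stood at 2851, 3951 and 3153 CPM against 5656, 4733 and 4749 (log2 change -0.60 ± 0.17, edgeR adjusted p = 0.0338). Scd was no longer called without the unnumbered MCAO library or any 1 sham (edgeR adjusted p = 0.0656 to 0.125).

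Among 24 cell cycle genes 6 rose, against 12.5% called higher over all genes tested, and the 6 were Mcm2, Mcm3, Mcm5, Mcm6, Pcna and Rrm2, which serve DNA replication. Mcm3, a subunit of the replicative helicase, stood at 13.04, 13.1 and 9.58 CPM against 3.48, 1.78 and 2.95 (log2 change 2.12 ± 0.32, edgeR adjusted p = 0.00252), and Mcm2 at 18.04, 19.3 and 13.6 against 6.03, 7.23 and 7.15 (log2 change 1.32 ± 0.24, edgeR adjusted p = 0.00584). Here MCAO 2 was as high as MCAO 1 and the unnumbered library was lowest. Mki67, a marker of dividing cells, stood at 7.22, 7.75 and 3.48 CPM against 1.98, 1.59 and 5.32 and was not called (edgeR adjusted p = 0.124); sham LN 3 lay above the unnumbered library. The count of 6 was 6 to 8 with a library left out.

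Even changes were the minority. Of the 1673 genes called higher by at least 2-fold, 5.68% had MCAO values within 0.5 of each other on the log2 scale and 40.4% spread over at least 2, while 13% of the 476 genes called lower by at least 2-fold lay within 0.5. Besides Gfap and Aspg, the even rises of at least 5 CPM on average included Nrp2, a receptor of semaphorins and VEGF (38.5, 42.8 and 48.4 CPM against 9.72, 15.5 and 12.5), Cnn3, an actin-binding calponin (259, 208 and 232 against 93.8 to 113), and Itpkb, an inositol phosphate kinase (76.3, 77.5 and 103 against 31.2 to 37.1). The even falls included Mal, Cnp, Opalin, Tspan2 and Fa2h of the myelin list and Cbs, the enzyme cystathionine beta-synthase (21.3, 29.9 and 24.8 CPM against 69.3 to 76.8). Cnn3, Itpkb and Cbs were picked after their values were seen.

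**Figure D2:**
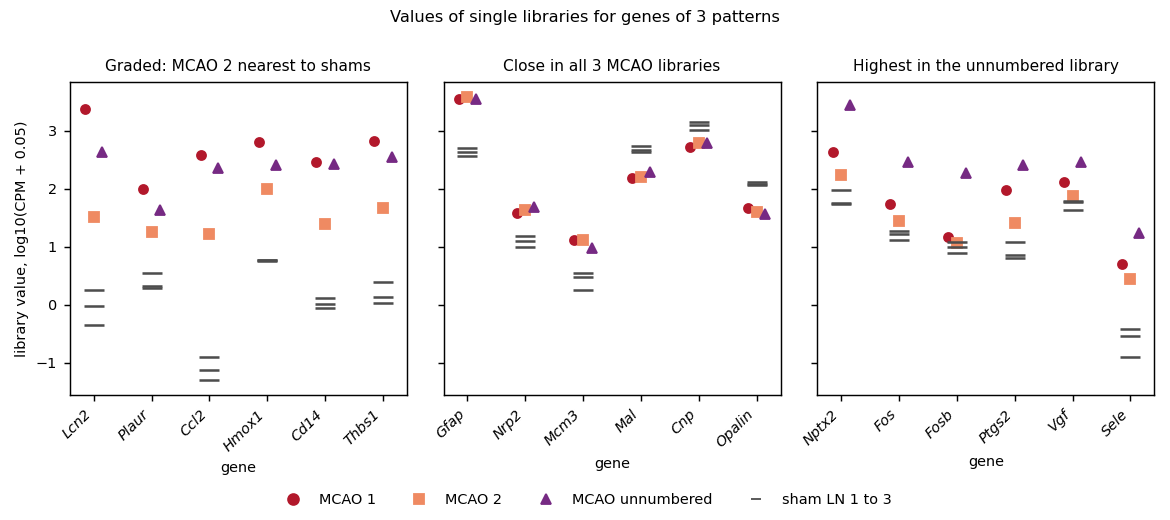
Library values of 18 genes as log10(CPM + 0.05) in 3 panels: genes for which MCAO 2 lies nearest to the shams, genes alike in all 3 MCAO libraries, and genes highest in the unnumbered library; circles are MCAO 1, squares MCAO 2, triangles the unnumbered library and grey bars the 3 shams. The panels were filled after the values were seen; Lcn2 spreads over 32.8 to 2359 CPM after MCAO whereas Gfap stays between 3433 and 3843.

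**Figure D3:**
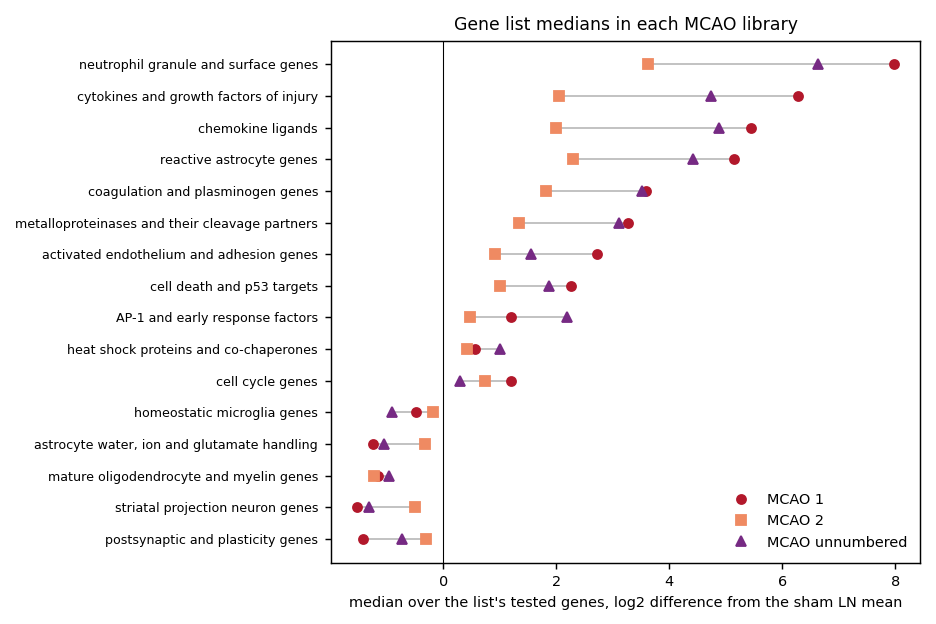
For 16 gene lists the median over tested members of the log2 difference from the sham LN mean, in each MCAO library (circle MCAO 1, square MCAO 2, triangle unnumbered), joined by a grey line. MCAO 2 has the smallest rise for the leukocyte, cytokine and astrocyte lists, but the myelin medians lie close together at -1.15, -1.22 and -0.97.

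Among early response transcription factors, 12 of 22 were called higher, with library medians of 1.20, 0.48 and 2.19, the unnumbered library being highest. Fosl1, an AP-1 subunit, stood at 21.4, 2.32 and 33.6 CPM against 0.0263 to 0.296 (log2 change 6.75 ± 0.98, edgeR adjusted p = 0.00244), and Atf3, a factor of cell stress, at 46.1, 6.61 and 31.1 against 0.0765 to 0.580 (log2 change 6.32 ± 0.78, edgeR adjusted p = 0.00146). Jun and Junb, partners of Fos, stood at 318, 101 and 336 and 474, 223 and 369.6 CPM against 70.9 to 80.7 and 85.2 to 113. Fos itself stood at 54.5, 28.03 and 290.0 CPM against 16.5, 18.2 and 13.04 (log2 change 2.96 ± 0.69, edgeR adjusted p = 0.0154) and Fosb at 14.8, 11.6 and 188 against 7.72, 9.75 and 11.8 (log2 change 2.88 ± 0.88, edgeR adjusted p = 0.0415), both with most of their signal in the unnumbered library; Fosb in MCAO 2 lay within the sham range. Fos was no longer called without any 1 sham (edgeR adjusted p = 0.0507 to 0.0653). Fosb was no longer called without the unnumbered MCAO library or any 1 sham (edgeR adjusted p = 0.103 to 0.478). Junb was no longer called without MCAO 1, sham LN 1 or sham LN 3 (edgeR adjusted p = 0.0523 to 0.0659).

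Npas4, Arc and Egr4, which synaptic activity switches on, exceeded the shams in that library alone and were not called. Npas4, a factor of neuronal activity, stood at 7.12, 8.39 and 108 CPM against 10.01, 8.08 and 5.66 (edgeR adjusted p = 0.0736), and Arc, a synaptic protein, at 75.7, 181 and 601 against 293, 268 and 98.5 (edgeR adjusted p = 0.677). Egr4, a zinc finger factor, stood at 13.4, 47.6 and 233 CPM against 68.7, 75.2 and 72.9 (edgeR adjusted p = 0.725), below the shams in 2 MCAO libraries and above in the unnumbered one. Nptx2, a secreted pentraxin that clusters AMPA receptors, stood at 434, 173 and 2760.1 CPM against 55.1, 95.8 and 56.5 (log2 change 4.02 ± 0.80, edgeR adjusted p = 0.00793). Vgf, a neuropeptide precursor, stood at 129, 74.3 and 284 CPM against 42.7, 61.1 and 57.7 (log2 change 1.59 ± 0.37, edgeR adjusted p = 0.0154), also highest in the unnumbered library. Vgf was no longer called without sham LN 1 or sham LN 3 (edgeR adjusted p = 0.053 to 0.0717). What set that library apart was not tested.

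Other inducible factors were called higher in 16 of 24 cases, and Klf15 lower (the count called higher was 9 without MCAO 1 or sham LN 3, and Klf15 was not called without MCAO 1, sham LN 1 or sham LN 3). Stat3, the factor downstream of interleukin-6 family cytokines, stood at 455, 222 and 515 CPM against 69.05, 76.2 and 66.3 (log2 change 2.49 ± 0.33, edgeR adjusted p = 0.00191), and Cebpd, a C/EBP factor of the acute phase, at 210.1, 48.96 and 156 against 11.4, 7.93 and 8.64 (log2 change 3.89 ± 0.71, edgeR adjusted p = 0.00576). Spi1, the myeloid factor PU.1, stood at 101, 22.01 and 54.3 CPM against 6.30, 5.26 and 5.09 (log2 change 3.41 ± 0.51, edgeR adjusted p = 0.00262). Each exceeded every sham in every MCAO library.

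Heat shock genes were called higher in 10 of 21 cases, against 12.5% over all genes tested, and in 5 without any 1 library other than MCAO 2. Hspb1, the small chaperone HSP27, stood at 418, 237 and 560.0 CPM against 4.61, 4.52 and 3.79 (log2 change 6.55 ± 0.72, edgeR adjusted p = 0.000909), and Hspa1b, an inducible HSP70, at 80.3, 21.7 and 105 against 0.843, 0.482 and 0.382 (log2 change 6.87 ± 0.72, edgeR adjusted p = 0.000821). Reads of Hspa1b and its near-identical copy Hspa1a may be split between them. Hspb1 and Hspa1b were above the shams in all 3 MCAO libraries and highest in the unnumbered one. The constitutive chaperones Hspa8 and Hsp90ab1 were not called (35.4, 44.4 and 60.2 CPM against 30.1, 37.7 and 33.7, and 1521, 1917 and 1994 against 1589, 1775 and 1654). The heat shock element, GAANNTTC followed at once by NNGAA and searched on both strands, was in 6 of 17 windows of this list (Hspa8, Hsph1, Hspd1, Hspe1, Dnaja1 and Chordc1) against 0.702% of all windows, and of those 6 genes Hspd1 and Hspe1 were called higher. Hspd1 was no longer called without any 1 library other than MCAO 2 (edgeR adjusted p = 0.0954 to 0.165). Hspe1 was no longer called without any 1 of the 6 libraries (edgeR adjusted p = 0.0767 to 0.142).

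Hmox1, heme oxygenase 1, stood at 642, 98.9 and 254 CPM against 5.95, 5.56 and 5.89 (log2 change 5.83 ± 0.70, edgeR adjusted p = 0.00134). Fth1, ferritin heavy chain, the largest CPM difference among genes called higher, stood at 9981, 2219 and 3423 CPM against 1339, 1183 and 1213 (log2 change 2.06 ± 0.47, edgeR adjusted p = 0.0133) and Ftl1, the light chain, at 1704, 343 and 559.5 against 229, 181 and 188 (log2 change 2.12 ± 0.54, edgeR adjusted p = 0.021). Ferritin genes have many processed copies, so their counts are uncertain. Both stood above the shams in all 3 libraries, with MCAO 2 nearest to them. Fth1 was no longer called without any 1 sham (edgeR adjusted p = 0.0508 to 0.0549). Ftl1 was no longer called without MCAO 1 or any 1 sham (edgeR adjusted p = 0.0666 to 0.0996). Of 20 in this list 11 were called higher (the count was 7 without MCAO 1 and 6 without any 1 sham, and 5 on the 6 libraries alone).

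Cell death and p53 target genes were called higher in 17 of 23 cases, and in 14 to 20 with a library left out. Bcl2a1, an antiapoptotic protein of leukocytes, stood at 34.4, 9.03 and 21.9 CPM against 0.111 to 0.612 (log2 change 5.68 ± 0.83, edgeR adjusted p = 0.00244), and Ripk3 and Mlkl, the kinase and the pore former of necroptosis, at 24.6, 6.96 and 21.4 and 9.53, 1.18 and 4.69 CPM against 0.593 to 1.03 and 0.191 to 0.445. Cdkn1a, the p53 target p21, stood at 227, 19.7 and 135 CPM against 11.3, 12.2 and 11.7 (log2 change 3.44 ± 0.73, edgeR adjusted p = 0.0101). Ccng1, another p53 target, was less spread at 481, 285 and 438 against 186, 186 and 162 (log2 change 1.17 ± 0.23, edgeR adjusted p = 0.00687). All 5 exceeded the shams in each MCAO library.

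Among 23 genes of glycolysis and hypoxia 13 were called higher (the count was 8 without MCAO 1, sham LN 1 or sham LN 3). The largest rises were Hk3, the hexokinase of leukocytes, at 117, 8.29 and 50.4 CPM against 0 to 0.229 (log2 change 9.13 ± 1.19, edgeR adjusted p = 0.00172), and Slc16a3, the lactate exporter MCT4, at 231, 37.9 and 71.4 against 0.727 to 2.001 (log2 change 6.49 ± 0.80, edgeR adjusted p = 0.00144). The abundant enzyme Aldoa was not called and overlapped between groups (1769, 1646 and 1713 CPM against 1740.3, 1899.9 and 1631). Proteasome and ribosomal genes had 7 of 21 called higher, against 12.5% over all genes tested, and 2 on the 6 libraries alone (the count was 2 without MCAO 1, sham LN 2 or sham LN 3 and 3 without the unnumbered MCAO library or sham LN 1). They were led by the immunoproteasome subunit Psmb9 at 28.6, 3.45 and 20.5 CPM against 1.07 to 2.29 (log2 change 3.35 ± 0.72, edgeR adjusted p = 0.0106). Psmb9 was no longer called without sham LN 3 (edgeR adjusted p = 0.0515).

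Genes that control clotting and clot lysis held large rises. Plaur, the receptor that holds urokinase at the cell surface, stood at 99.2, 18.1 and 42.8 CPM against 2.05, 3.48 and 1.91 (log2 change 4.43 ± 0.77, edgeR adjusted p = 0.00466), and Thbs1, thrombospondin-1 of platelets and vessel wall, at 669, 46.7 and 357 against 1.29, 2.45 and 1.03 (log2 change 7.82 ± 1.10, edgeR adjusted p = 0.00234). In MCAO 2 both were above the shams and below the other stroke libraries. F7, clotting factor VII, had no sham count and stood at 3.80, 0.543 and 5.51 CPM (at least 100.4-fold higher). Of 20 tested 14 were called higher, at a median log2 change of 3.41, and 11 to 17 with a library left out.

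Metalloproteinases cut matrix and junction proteins, and 14 of 20 tested genes of this list were called higher and Timp4, an inhibitor, lower (the count called higher was 8 without MCAO 1, 7 without sham LN 1 and 9 without sham LN 3). Mmp9, a gelatinase of neutrophils, stood at 216, 31.8 and 267 CPM against 3.48, 4.04 and 2.14 (log2 change 5.73 ± 0.93, edgeR adjusted p = 0.00348) and Mmp3, stromelysin-1, at 23.05, 0.938 and 5.998 against 0, 0 and 0.229 (log2 change 7.09 ± 1.37, edgeR adjusted p = 0.00709). Mmp10, stromelysin-2, had no sham count and stood at 2.89, 0.247 and 0.822 CPM (at least 40.3-fold higher), and Mmp13, a collagenase, stood at 1.44, 0.148 and 2.85 CPM with 1 sham count (a ratio of 136, 95% counting interval 23.8 to 5420.2). Mmp10 and Mmp13 in MCAO 2 were under 0.3 CPM. Mmp10 was no longer called without MCAO 1, sham LN 1 or sham LN 3 (edgeR adjusted p = 0.0528 to 0.0604). Mmp13 was no longer called without any 1 library other than MCAO 2 (edgeR adjusted p = 0.086 to 0.139). Timp2, another inhibitor, was high in all libraries (341, 238 and 260.0 CPM against 134, 188 and 169, log2 change 0.77 ± 0.17, edgeR adjusted p = 0.0106). Timp2 was no longer called without MCAO 1 or sham LN 1 (edgeR adjusted p = 0.0547 to 0.0611). Timp4 was no longer called without MCAO 1, the unnumbered MCAO library, sham LN 1 or sham LN 2 (edgeR adjusted p = 0.0501 to 0.109). The promoters of Mmp3, Mmp10 and Mmp13, neighbours on chromosome 8, are shown because each holds the AP-1 letters TGANTCA, in capitals, in a narrow range of distance from the start (first base 71, 61 and 66 bases before it). They are the 250 bases before the start, 5′ to 3′, from RefSeq.
Mmp3, GRCr8 chr8:12925031-12925280, plus strand: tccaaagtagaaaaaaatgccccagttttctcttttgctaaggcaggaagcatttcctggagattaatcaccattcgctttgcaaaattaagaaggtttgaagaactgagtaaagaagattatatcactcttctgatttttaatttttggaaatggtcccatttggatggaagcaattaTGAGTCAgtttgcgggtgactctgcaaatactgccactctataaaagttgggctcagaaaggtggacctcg
Mmp10, GRCr8 chr8:12974457-12974706, plus strand: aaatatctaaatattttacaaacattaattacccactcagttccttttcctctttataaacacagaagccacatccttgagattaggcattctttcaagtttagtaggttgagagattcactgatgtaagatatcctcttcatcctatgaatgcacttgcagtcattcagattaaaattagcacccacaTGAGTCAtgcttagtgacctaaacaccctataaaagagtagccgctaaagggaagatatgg
Mmp13, GRCr8 chr8:12782579-12782828, plus strand: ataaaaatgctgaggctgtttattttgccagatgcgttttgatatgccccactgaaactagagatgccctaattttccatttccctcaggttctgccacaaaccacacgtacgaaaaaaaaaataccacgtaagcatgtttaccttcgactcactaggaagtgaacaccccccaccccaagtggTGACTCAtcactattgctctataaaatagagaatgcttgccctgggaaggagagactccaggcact
The letters TGANTCA, searched on both strands, were in 4 of 15 windows of this list, the other being Mmp12, and in 5 of 12 of the clotting list (F5, Plaur, Procr, Tfpi2 and Anxa2). Over all 24206 windows the share was 7.33%, over tested genes 5.26%, over all genes called higher 9.18%, over genes called lower 4.19% and over the 396 genes called higher by at least 3 on the log2 scale 16.4%. The windows of Gfap, Lcn2, Nptx2 and Socs3 held neither these letters nor those of NF-kB.

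Of 20 activation and adhesion genes 10 were called higher (the count was 5 without sham LN 1, 6 without sham LN 2 and 4 without sham LN 3). Icam1, which holds leukocytes at the vessel wall, stood at 143, 16.8 and 153 CPM against 3.32, 4.37 and 3.25 (log2 change 4.84 ± 0.80, edgeR adjusted p = 0.00368), and Sele, endothelial E-selectin, at 4.91, 2.71 and 16.9 against 0.0765 to 0.334 (log2 change 5.20 ± 1.39, edgeR adjusted p = 0.0258), highest in the unnumbered library. Sele was no longer called without the unnumbered MCAO library or any 1 sham (edgeR adjusted p = 0.0719 to 0.0925). Of 19 barrier genes 2 were called higher, at a median log2 change of 0.21, a share under the 12.5% over all genes tested. They were the glucose transporter Slc2a1, at 823, 289 and 505 CPM against 199, 186 and 187 (edgeR adjusted p = 0.0164), and the lactate transporter Slc16a1, and without MCAO 2 the counts were 7 higher and 5 lower. Slc2a1 was no longer called without MCAO 1 or any 1 sham (edgeR adjusted p = 0.0575 to 0.0809). Slc16a1 was no longer called without any 1 library other than MCAO 2 (edgeR adjusted p = 0.0747 to 0.154). Cd34, a surface protein of endothelium and progenitors, fell from 46.7, 61.3 and 38.5 to 6.88, 20.4 and 7.30 CPM (log2 change -2.08 ± 0.60, edgeR adjusted p = 0.0341). Cd34 was no longer called without any 1 library other than MCAO 2 (edgeR adjusted p = 0.0654 to 0.124).

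Among 25 collagens and matrix glycoproteins 10 were called higher, against 12.5% over all genes tested (the count was 6 without MCAO 1, sham LN 1 or sham LN 3, and 15 without MCAO 2). Tnc, tenascin C, stood at 205, 22.01 and 224 CPM against 11.6, 13.9 and 17.5 (log2 change 3.39 ± 0.65, edgeR adjusted p = 0.00687), Lox, the enzyme that cross-links collagen, at 130.5, 8.69 and 46.5 against 1.96 to 3.24 (log2 change 4.60 ± 0.81, edgeR adjusted p = 0.00481), and Fn1, fibronectin, at 650.1, 203 and 328 against 81.03, 78.1 and 58.5 (log2 change 2.44 ± 0.38, edgeR adjusted p = 0.00288). Of 17 pericyte and smooth muscle genes 4 were called higher, Anpep, Cnn1, Tagln and Des, and Rgs5, a pericyte regulator of G protein signalling, lower (8.76, 23.1 and 10.98 CPM against 33.1, 25.6 and 27.2). The count called lower was 6 without MCAO 2, and the 1 in 17 is close to the 6.07% over all genes tested, of which 12.5% were called higher. Rgs5 was no longer called without any 1 library other than MCAO 2 (edgeR adjusted p = 0.0806 to 0.156). Cnn1 was no longer called without sham LN 1 or sham LN 3 (edgeR adjusted p = 0.0553 to 0.0654). Tagln, the smooth muscle protein transgelin, stood at 164, 37.4 and 103 CPM against 21.3, 14.5 and 15.1 (log2 change 2.58 ± 0.52, edgeR adjusted p = 0.00835). The 13 listed meningeal and fibroblast markers summed to 299.9 to 525 CPM after MCAO and 326 to 634 in shams. Ptgds was the most abundant of them and weighed most in these sums, which therefore say little about the other members.

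Neuronal lists differed in their counts, with striatal genes most often called lower, and a sham library stood apart here. Over all genes tested 12.5% were called higher and 6.07% lower. Of 21 striatal projection neuron genes 12 were called lower at a median log2 change of -1.10, with library medians of -1.52, -0.50 and -1.32. Rgs9, a signalling regulator enriched in striatum, stood at 46.5, 153 and 56.8 CPM against 362, 156 and 292 (log2 change -1.66 ± 0.43, edgeR adjusted p = 0.0226), and Adora2a, the adenosine receptor of indirect pathway neurons, at 117, 197 and 95.7 against 464, 191 and 429 (log2 change -1.41 ± 0.42, edgeR adjusted p = 0.0382). In both sham LN 2 was far below the other shams and close to MCAO 2, and the groups overlapped for Adora2a. Ppp1r1b, the dopamine signalling protein DARPP-32, was not called (1467, 1309 and 1287 CPM against 2869, 1345 and 2408, edgeR adjusted p = 0.139), again with sham LN 2 at the MCAO level. For 7 of the 21 genes the library values of the groups did not overlap, a share under the 39.1% of all genes tested. The count called lower was 2 without MCAO 1, 1 without the unnumbered library, sham LN 1 or sham LN 3, 14 without sham LN 2, 17 without MCAO 2 and 1 on the 6 libraries alone. Rgs9 and Adora2a were no longer called without MCAO 1, the unnumbered MCAO library, sham LN 1 or sham LN 3 (edgeR adjusted p = 0.062 to 0.138). How much striatum each library held is not given in the sources used here, and its part in these values was not tested.

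Receptor and synaptic lists were called lower unevenly. Of 21 glutamate receptor subunits 6 were called lower, 15 without MCAO 2 and 0 without any other of the 6 libraries. Grin2c, an NMDA receptor subunit, stood at 29.9, 101 and 41.4 CPM against 172, 148 and 149 (log2 change -1.45 ± 0.40, edgeR adjusted p = 0.0288), and Grm3, a metabotropic receptor of glia and neurons, at 21.2, 83.8 and 25.3 against 116, 131 and 111 (log2 change -1.46 ± 0.46, edgeR adjusted p = 0.0467). Grin2c and Grm3 were no longer called without any 1 library other than MCAO 2 (edgeR adjusted p = 0.0637 to 0.16). Of 16 GABA and glycine receptor subunits 0 were called lower by edgeR (2 at an unadjusted p under 0.05, 2 by DESeq2, 2 by limma voom and 5 by edgeR without MCAO 2), and Glra1, a glycine receptor subunit, was called higher (11.5, 0.395 and 8.80 CPM against 0.975, 0.222 and 0.0765), with MCAO 2 inside the sham range. Glra1 was no longer called without MCAO 1, the unnumbered MCAO library, sham LN 2 or sham LN 3 (edgeR adjusted p = 0.0506 to 0.066). Of 20 postsynaptic genes 6 were called lower (the count was 1 without the unnumbered MCAO library or sham LN 3, 0 without sham LN 1 and 2 without sham LN 2), among them Dlg4, the scaffold PSD-95, at 585, 1269 and 889 CPM against 1556, 1602 and 1515 (log2 change -0.77 ± 0.22, edgeR adjusted p = 0.0353). Dlg4 was no longer called without the unnumbered MCAO library or any 1 sham (edgeR adjusted p = 0.0835 to 0.108). Synaptic vesicle genes had 1 of 21 called lower, Doc2b, a share of 4.76% that is under the 6.07% over all genes tested, and 7 without MCAO 2. Doc2b was no longer called without sham LN 1 (edgeR adjusted p = 0.0507). Cplx2, a regulator of vesicle fusion, stood at 525, 1959.8 and 1059.8 CPM against 2617, 2859 and 2358 and lay just past the threshold (edgeR adjusted p = 0.0501).

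Ion channel genes had 4 of 25 potassium channels called lower (12 without MCAO 2, and 1 without the unnumbered library, sham LN 1 or sham LN 3) and 2 of 23 sodium and calcium channels (near the 6.07% over all genes tested; 12 without MCAO 2, and 0 without MCAO 1, the unnumbered library, sham LN 1 or sham LN 3). Kcnj9, a G protein-gated potassium channel, stood at 52.2, 114 and 73.8 CPM against 179.7, 219 and 144 (log2 change -1.18 ± 0.24, edgeR adjusted p = 0.009), lowest in MCAO 1. Cortical and hippocampal genes had 2 of 22 called higher, Ctgf and Wfs1, and Tle4 lower, shares under the 12.5% and 6.07% over all genes tested, and 9 lower without MCAO 2. Ctgf was no longer called without MCAO 1 or any 1 sham (edgeR adjusted p = 0.0719 to 0.194). Wfs1 was no longer called without MCAO 1 or sham LN 1 (edgeR adjusted p = 0.0554 to 0.0588). Tle4 was no longer called without any 1 library other than MCAO 2 (edgeR adjusted p = 0.0829 to 0.136). Slc17a7, the vesicular glutamate transporter of cortex, overlapped between groups (447, 1397 and 1013 CPM against 802, 1612 and 953). Of 22 interneuron and neuropeptide genes 4 were called higher, Gal, Vgf, Nptx2 and Chgb, and Calb2 lower, at a median log2 change of 0.02 (the count called higher was 2 without sham LN 1 or sham LN 3 and 1 on the 6 libraries alone, and 3 were lower without MCAO 2). Called in either direction were 22.7% of them, near the 18.6% over all genes tested, of which 12.5% were higher and 6.07% lower. Chgb, a granin of secretory vesicles, stood at 661, 490.3 and 948 CPM against 351, 427 and 373, and Calb2, the calcium-binding protein calretinin, at 4.52, 5.87 and 3.68 against 7.59, 9.34 and 10.1 (log2 change -0.94 ± 0.17, edgeR adjusted p = 0.00583). Chgb was no longer called without MCAO 1, the unnumbered MCAO library, sham LN 1 or sham LN 3 (edgeR adjusted p = 0.0623 to 0.0867). Gad1, which makes GABA, stood at 459, 304 and 479 CPM against 359.7, 282 and 340.4 and Sst, somatostatin, at 96.7, 136 and 118 against 166, 185 and 171, neither called (edgeR adjusted p = 0.29 and 0.0756).

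Genes known from injured axons were called higher in 10 of 21 cases and lower in 3 (9 higher without any 1 library other than MCAO 2; 0 lower without the unnumbered library, sham LN 1 or sham LN 3, 1 without MCAO 1 or sham LN 2, and 7 without MCAO 2). Sprr1a, a small proline-rich protein of regrowing axons, stood at 93.2, 3.45 and 142 CPM against 0.422 to 0.964 (log2 change 6.91 ± 1.10, edgeR adjusted p = 0.00315), and Gal, the neuropeptide galanin, at 22.5, 2.67 and 23.8 against 0.593 to 0.922 (log2 change 4.36 ± 0.67, edgeR adjusted p = 0.00288). Tubb6, a beta tubulin, stood at 202, 77.4 and 227 CPM against 3.48 to 6.32 (log2 change 5.17 ± 0.49, edgeR adjusted p = 0.000599). For all 3 MCAO 2 was lowest of the stroke libraries and above the shams. The neuronal tubulins Tuba1a and Tubb3 were not called (413, 545 and 539 CPM against 491, 635 and 556 for Tubb3). Of the 10 called higher, Smad1 was no longer called without any 1 library other than MCAO 2 (edgeR adjusted p = 0.0795 to 0.157).

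**Figure D4:**
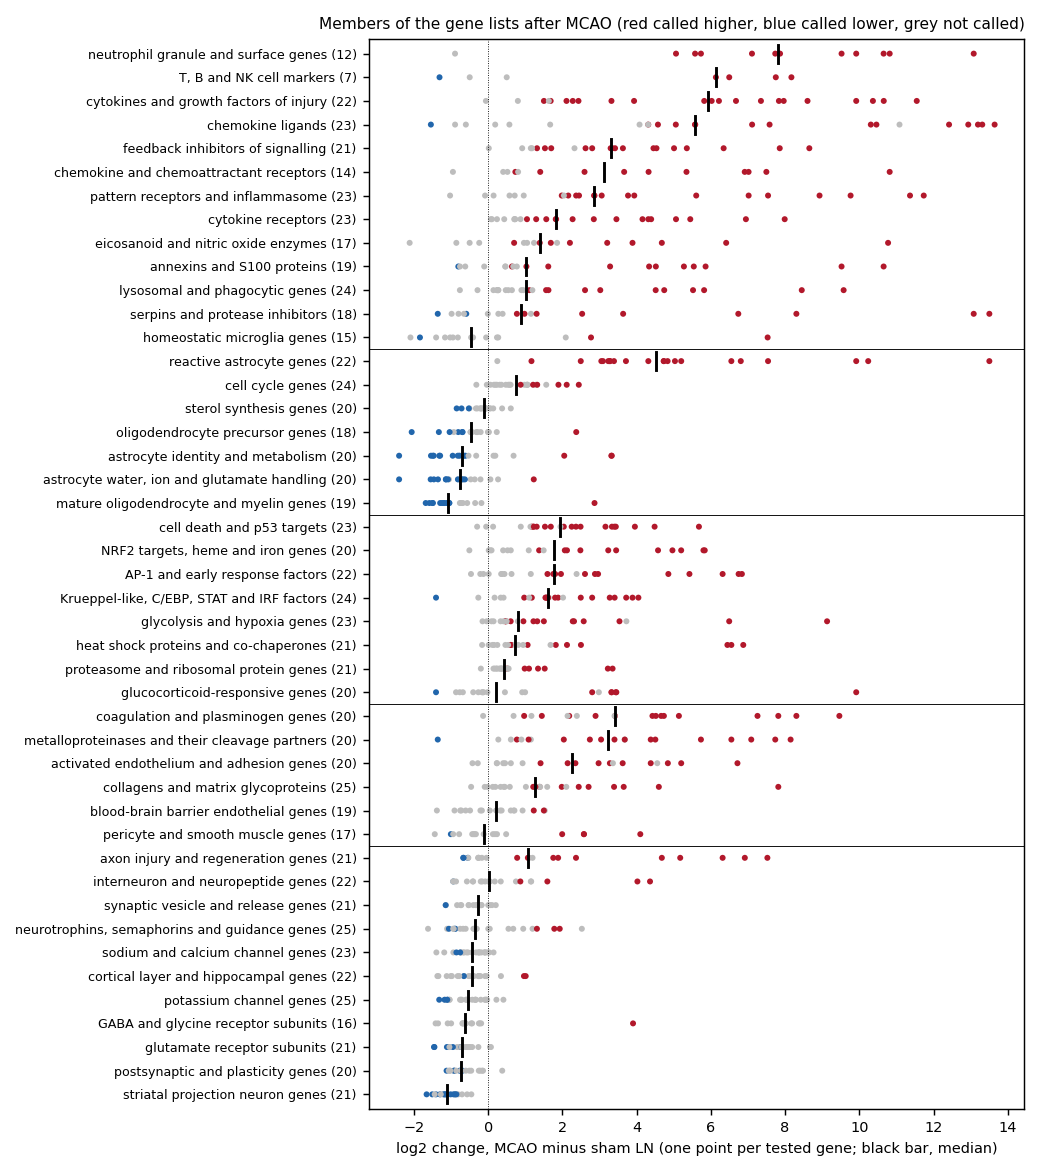
Fitted log2 changes of the tested members of the gene lists in 5 blocks (immune, glia, stress, vessel wall, neuron), with the number tested in brackets; red points were called higher, blue lower and grey not called, and the black bar is the list median. Immune lists extend furthest to the right, and the myelin and striatal lists have medians near -1.

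Guidance and neurotrophic genes were called in both directions, with 3 higher of 25 tested, close to the 12.5% over all genes tested, among them Gfra1 and Nrp2, and Ntrk3, Robo1 and Ntn1 lower; without MCAO 2 the counts were 5 and 12. Gfra1, a receptor of GDNF, stood at 34.7, 83.5 and 79.6 CPM against 24.6, 26.1 and 28.9 (log2 change 1.31 ± 0.31, edgeR adjusted p = 0.0168). Ntn1, the guidance protein netrin-1, stood at 10.3, 11.3 and 8.08 CPM against 25.8, 13.04 and 22.9 (log2 change -1.06 ± 0.29, edgeR adjusted p = 0.03). Gfra1 was above, and Ntn1 below, every sham in every MCAO library. Gfra1 was no longer called without the unnumbered MCAO library or any 1 sham (edgeR adjusted p = 0.0536 to 0.0718). Ntn1 was no longer called without MCAO 1, the unnumbered MCAO library, sham LN 1 or sham LN 3 (edgeR adjusted p = 0.0599 to 0.114). Ntrk3 and Robo1 were no longer called without any 1 library other than MCAO 2 (edgeR adjusted p = 0.0606 to 0.105).

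Outside the lists the largest rises included genes of myeloid cells. Irg1, the enzyme that makes itaconate in activated macrophages, had no sham count and stood at 162, 9.53 and 64.6 CPM (at least 2406-fold higher). Cyp4f18, a cytochrome that inactivates leukotriene B4, stood at 48.7, 10.9 and 14.99 CPM with no sham count (at least 759-fold higher), and Lilrb4, an inhibitory receptor of myeloid cells, at 70.9, 13.3 and 28.4 with 1 (a ratio of 3439, 95% counting interval 617 to 135873). Saal1, annotated as like serum amyloid A, spread widely, at 318, 3.31 and 69.7 CPM with no sham count (at least 3994-fold higher). Saal1 was no longer called without any 1 library other than MCAO 2 (edgeR adjusted p = 0.0599 to 0.087). Irg1 was no longer called without sham LN 1 (edgeR adjusted p = 0.052). The largest falls lay at low to middle levels. Fzd9, a Wnt receptor, stood at 2.84, 9.57 and 4.64 CPM against 24.6, 21.9 and 24.3 (log2 change -2.05 ± 0.34, edgeR adjusted p = 0.00374), Cldn10, a claudin, at 2.21, 8.69 and 2.18 against 22.7, 19.1 and 19.7 (log2 change -2.23 ± 0.46, edgeR adjusted p = 0.00934), and Tril, which assists Toll-like receptor 4 in astrocytes, at 22.4, 119.8 and 30.5 against 278, 243 and 231 (log2 change -2.12 ± 0.53, edgeR adjusted p = 0.0196). Tril was no longer called without the unnumbered MCAO library, sham LN 1 or sham LN 3 (edgeR adjusted p = 0.0513 to 0.0761). Among abundant genes, Fbxl16, an F-box protein of neurons, stood at 788, 1468 and 879.5 CPM against 2267, 1946 and 2147 (log2 change -1.02 ± 0.21, edgeR adjusted p = 0.00849) and Tubb4a, a tubulin of neurons and oligodendrocytes, at 454, 892 and 629.8 against 1485, 1636 and 1259 (log2 change -1.15 ± 0.28, edgeR adjusted p = 0.0176). Tubb4a was no longer called without the unnumbered MCAO library, sham LN 1 or sham LN 2 (edgeR adjusted p = 0.0586 to 0.0657). In these falls MCAO 1 or the unnumbered library was lowest and MCAO 2 nearest to the shams.

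Markers of choroid plexus, which makes cerebrospinal fluid, were high in MCAO 1. The 13 markers of choroid plexus and of ependyma, the lining of the ventricles, summed to 1113 CPM in MCAO 1, 11.5 in MCAO 2, 17.9 in the unnumbered library and 8.12 to 31.2 in the shams. Ttr, transthyretin, made up most of it at 1019, 0.691 and 5.51 CPM against 3.06, 0.519 and 0.459 and was the member called higher (log2 change 7.91 ± 2.17, edgeR adjusted p = 0.0285). Ttr was no longer called without MCAO 1 or any 1 sham (edgeR adjusted p = 0.0753 to 0.501). Kl and Folr1 followed the same library order at the top (17.7, 0.296 and 1.35 and 8.42, 0.0494 and 0.435 CPM). Their part in the other values of MCAO 1 was not tested. Hydin, a protein of motile cilia and the largest fall by log2 among genes that reached 5 CPM in a group and did not overlap, stood at 2.26, 2.47 and 1.26 CPM against 17.6, 3.97 and 20.1 (log2 change -2.80 ± 0.53, edgeR adjusted p = 0.00674), with sham LN 2 near the MCAO values; the cilia factor Foxj1 was likewise lowest among shams in sham LN 2 (6.40, 1.63 and 10.3 CPM). The 10 red cell markers in the table summed to 96.1 to 148 CPM after MCAO and 17.6 to 152 in shams.

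Pontine infarction was read side by side, as it shares no library with this comparison. Against sham PN 694 genes were called, 4.08% of those tested (546 higher, 3.21%, and 148 lower, 0.87%). Called after both strokes in the same direction were 445 genes, 14.1% of the MCAO calls and 64.1% of those after pontine infarction, and 2 were called in opposite directions. For no gene did the response to MCAO differ from that to pontine infarction by edgeR (0 called, 1826 at an unadjusted p under 0.05), while DESeq2 called 238 and limma voom 0. That count was 970 without MCAO 2. Some lists had unlike counts. Cell cycle genes were called higher in 6 of 24 after MCAO and 18 after pontine infarction, and sterol synthesis genes lower in 3 of 20 and 12. Cell death genes were called higher in 17 of 23 and 3, and feedback inhibitors in 16 of 21 and 4. Over all genes tested 12.5% were called higher after MCAO and 3.21% after pontine infarction. Median log2 changes after MCAO and after pontine infarction were 1.95 and 0.92 for cell death genes and 3.30 and 1.35 for feedback inhibitors. These differences between lists were not tested.

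Single genes with unlike fitted changes included Arg1 (4.68 after MCAO and 0.52 after pontine infarction on the log2 scale), Nptx2 (4.02 and 0.33) and Nrp2 (1.78 and 0.12). The adjusted p of the difference by edgeR was 0.261, 0.277 and 0.135 in that order. Gfap had log2 changes of 3.05 and 1.83, and Gpnmb of 5.82 and 6.54. These 5 genes were chosen after their values were seen.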

How the data were processed

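RNA of 12 rat brain libraries was extracted with Trizol, with RIN above 8 per the labels' protocols. The authors deposited a table of raw gene counts for 37209 symbols; HISAT2 and the Rnor_6.0 genome are named in the submitters' processing notes, and the sources used here do not name the counter, annotation or strandedness. Library totals ran from 19958472 to 40400676 counts in the 6 libraries compared, which limits precision at low levels.

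Genes were filtered with filterByExpr (minimum count 10, minimum total 15), scaled by TMM and fitted over all 12 libraries in 4 groups with the quasi-likelihood test of edgeR 4.0.16 in R 4.3.3. Adjusted p-values are Benjamini-Hochberg over 17008 genes, the threshold is 0.05, and the SE is the log2 change divided by the root of F. Where shams had no count, the bound of a fold used 3 counts over the group; for 1 to 3 counts a ratio with an exact interval is given, which covers counting error only. The steps were tested on simulated data. DESeq2 1.42.0 and limma 3.58.1 (voom) were alternatives.

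The members and the 51 gene lists were chosen with earlier results of these data known. From each list the rule named first up to 4 called genes with the largest log2 changes and up to 2 of the most abundant; beyond the lists it took the 15 largest rises and falls by log2 change (at least 5 CPM, no overlap) and the 10 largest by CPM. Not every gene it names is printed, other list members are named too, and symbols that are only locus numbers were left out; a few listed genes are not reported here. Promoters were matched by symbol to RefSeq windows on GRCr8, for 10914 of the tested genes, and only names, chromosomes and sequences were taken from that build. The 7 patterns searched were those of NF-kB, AP-1, STAT and CRE and the heat shock, interferon and antioxidant response elements, and not all are described.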

Additional observations from a re-analysis of the deposited data

How the results depend on the processing

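The direction of MCAO minus sham LN did not reverse for any called value recomputed, but counts of calls moved. Against 3163 genes changed (2131 higher, 1032 lower), the 6 libraries alone gave 1354 (1125 and 229), DESeq2 called 2052 lower, and a log2 change of at least 1 left 476 lower. Leaving out 1 of the 12 libraries gave 1136 to 6170 changed, 937 to 2873 higher and 199 to 3297 lower; outside the 6 compared, the fewest came without sham PN 2, at 632 lower. The difference between the responses to MCAO and to pontine infarction was called for 0 genes by edgeR and voom, 1 with no filter on low counts, 238 by DESeq2 and 0 to 970 with a library left out, the 970 without MCAO 2. Stroke and sham libraries of the same number were not treated as pairs in the main fit. Correlations of their deviations from the group means were 0.104, 0.043, 0.048, 0.150 and 0.154. Differently numbered libraries were not compared in this way, so these values cannot decide whether the numbers mark pairs. The unnumbered library has no partner. With a replicate block over the numbered pairs, which drops that library and its sham, 131 genes were changed, 121 higher and 10 lower. Fewer libraries entered some of these fits, and the cause of the shifts was not tested. Depth limits the genes near 0 in shams, whose fold rests on 0 to 3 counts.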
